A study of Homo sapiens with 4 samples.

Results

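The NKG2 lectin receptors are the products of KLRC1 (NKG2A), KLRC2 (NKG2C) and KLRC3 (NKG2E), and each pairs with the partner chain CD94, the product of KLRD1. They were followed here in SW620, an established line of human colon adenocarcinoma cells that came from a lymph node metastasis. Every probe set whose platform annotation named one of these 4 genes, alone or among several, was taken, which gave 5 of the 54675 probe sets on the array. One of them, 206785_s_at, named both KLRC1 and KLRC2. The other 4 named a single gene, 1 for KLRC3 and 3 for KLRD1. The genes were chosen by their log2 difference between CD133+ and CD133- cells on these same arrays, so those differences are given as a description with no test.

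The groups were CD133+ cells of clone CPC1 (2 arrays) and CD133- cells of clone CNC1 (2 arrays), both grown from SW620 cells that magnetic beads had separated by the surface protein CD133, with no drug or genetic change named for either. The clone cells were expanded and passed over the CD133 beads again before total RNA was extracted. Each group is 1 clone, so CD133 status and clone cannot be told apart. The labels do not say whether a clone's arrays stem from different cultures, and all p-values below therefore measure array-to-array spread only, which may be technical.

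CD94/NKG2 receptors sit on natural killer cells and some T cells and read the non-classical class I molecule HLA-E, which displays peptides cut from the leader sequences of other class I molecules. The heterodimer with NKG2A carries inhibitory motifs in its tail and recruits phosphatases such as SHP-1, whereas the heterodimer with NKG2C carries no such motif and signals through the adaptor DAP12. The genes lie side by side on chromosome 12 in the natural killer gene complex, next to KLRC4 (NKG2F) and KLRK1 (NKG2D, a receptor for stress-induced ligands that pairs with the adaptor DAP10). In colon tissue they are known from lymphocytes within the epithelium rather than from the epithelial cells.

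All signals below are log2 probe-set signals after quantile normalization of the deposited values over the 54613 probe sets that were not controls, and all differences are CD133+ minus CD133- on that log2 scale. The deposited array medians ran from 4.45 to 4.60, and replicate arrays correlated with r = 0.992 in both clones over the genes tested. CD133- replicate 1 had the highest upper quartile (6.91, against 6.61 to 6.71 on the other arrays), and CD133+ replicate 2 had the largest 3' over 5' difference of ACTB (1.92, against 0.71 to 1.18). PROM1, which encodes CD133, had signals of 8.46 and 8.73 in the CD133+ clone against 3.31 and 3.35 in the CD133- clone, which checks the labels. Of the 15821 genes tested with limma, 577 (3.65%) were called at an adjusted p under 0.05, 207 (1.31%) higher and 370 (2.34%) lower in CD133+ cells.

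KLRC1 and KLRC2, whose transcripts are known as close copies of each other, share 206785_s_at in the annotation. Probe sequences were not at hand to check why. The RefSeq gene table lists the record from which the platform drew this probe set under KLRC2. The probe set cannot say which of these genes gave the signal, the inhibitory or the activating one, and it may read both. Its signals were 10.16 and 10.63 in the CD133+ clone and 8.61 and 8.64 in the CD133- clone. Both CD133+ arrays thus lay above both CD133- arrays by well over the gap between replicates, and CD133+ replicate 2 was the highest of all. The means were 10.39 ± 0.33 (SD, n = 2) and 8.63 ± 0.017 (SD, n = 2). The log2 difference was 1.77, or 3.41-fold, and it ran from 1.53 without CD133+ replicate 2 to 2.0 without CD133+ replicate 1. Only 5 of the 54613 probe sets had a larger positive difference: those of PROM1, LINC02582 and CAPN6 and a pair for AGR2.

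The signal was high as well as different. It stood at percentile 96.7 of all probe sets in the CD133+ clone and at percentile 89.5 in the CD133- clone. Among the 4589 probe sets with a mean signal of 9 or more, 7 were at least 2-fold higher in CD133+ cells, and this was one of them. Percentiles place a probe set within the array's range and do not measure transcripts per cell, since probes differ in how well they bind. In RNA from many cells, fewer cells carrying a transcript and less of it in each cell cannot be told apart.

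KLRC3 encodes NKG2E, which resembles NKG2C and likewise pairs with CD94. Its probe set 207723_s_at gave 5.73 and 5.69 in the CD133+ clone and 4.97 and 4.85 in the CD133- clone. Again no array of one clone reached into the range of the other, and the replicates lay closer together than for 206785_s_at in CD133+ cells. The means were 5.71 ± 0.027 (SD, n = 2) and 4.91 ± 0.088 (SD, n = 2), a log2 difference of 0.80 or 1.74-fold. Larger positive differences were found in 262 probe sets. The level was moderate, at percentile 65.6 in CD133+ and percentile 56.1 in CD133- cells. Probe sequences were not at hand. Whether 207723_s_at also picks up transcripts of KLRC1 or KLRC2, whose probe set was far brighter, was not tested.

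KLRD1 encodes CD94, the chain that every NKG2A, NKG2C or NKG2E heterodimer needs. Its brightest probe set, 207795_s_at, gave 3.77 and 3.70 in the CD133+ clone and 3.76 and 3.82 in the CD133- clone. The probe set 210606_x_at gave 3.45 and 3.57 in CD133+ and 3.53 and 3.62 in CD133- cells. For 207796_x_at the signals were 3.41 and 3.07 in CD133+ and 3.21 and 3.30 in CD133- cells.

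In all 3 KLRD1 probe sets the arrays of the clones overlapped. The log2 differences were -0.055 for 207795_s_at, -0.071 for 210606_x_at and -0.015 for 207796_x_at, and in the values as deposited they were 0.031, 0.0052 and 0.028, so their sign depends on the scaling. The mean signals of 3.77, 3.54 and 3.25 stood at percentiles 32.5, 24.8 and 12.5 of all probe sets. Genes with a signal below 3.75 were left out of the tests, and the brightest KLRD1 probe set lay just above that line. The KLRD1 signals were therefore at the low end of the array's range on all 4 arrays, where a dim signal does not show that the transcript was absent.

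**Figure D1:**
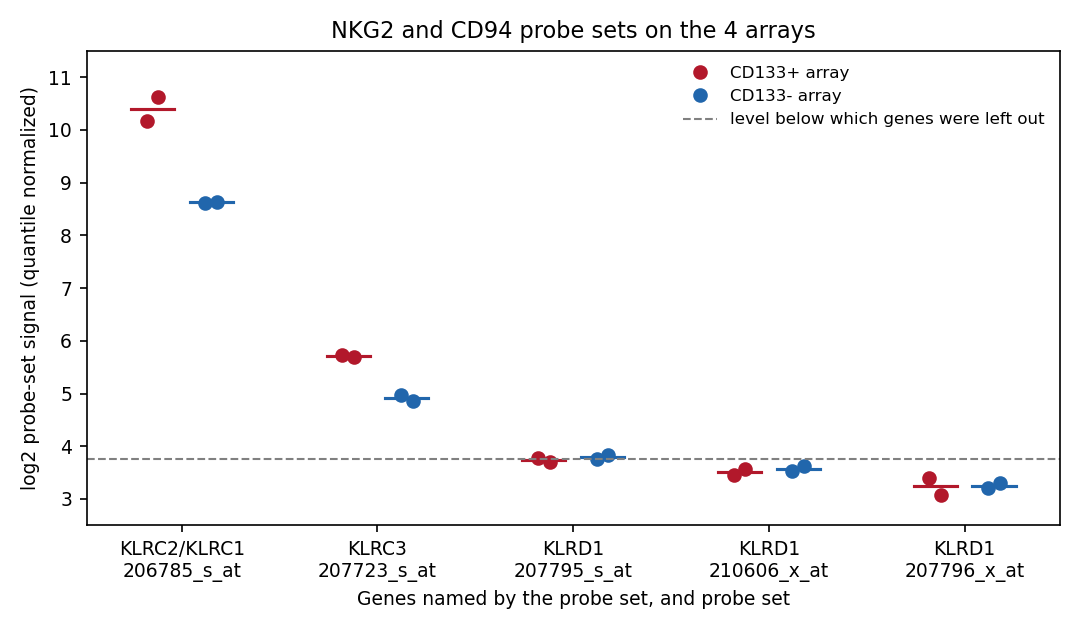
Log2 signal of the 5 probe sets on each array, with CD133+ arrays in red, CD133- arrays in blue, a bar at each mean and a dashed line at 3.75, below which genes were left out of the tests. The KLRC2/KLRC1 and KLRC3 probe sets separate the clones (differences of 1.77 and 0.80), and the 3 KLRD1 probe sets sit near the dashed line with the clones mixed.

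The members therefore fell into probe sets that separated the clones (2 of 5, both higher in CD133+ cells) and probe sets that did not (the 3 of KLRD1). Over all probe sets that were not controls, the arrays of the clones lay apart in 43.9%, and were higher in CD133+ in 23.5%. Separation alone was thus common on these arrays, and nothing is read from the members' count, since this contrast was known when they were picked. For scale, 95% of all probe sets had a difference below 0.46. Nothing is read from the members' sizes or ranks either, since the members were picked by this difference. As the filter on level worked on genes read by a probe set of their own, KLRC3 and KLRD1 passed it and KLRC1 and KLRC2 were not tested as genes.

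**Figure D2:**
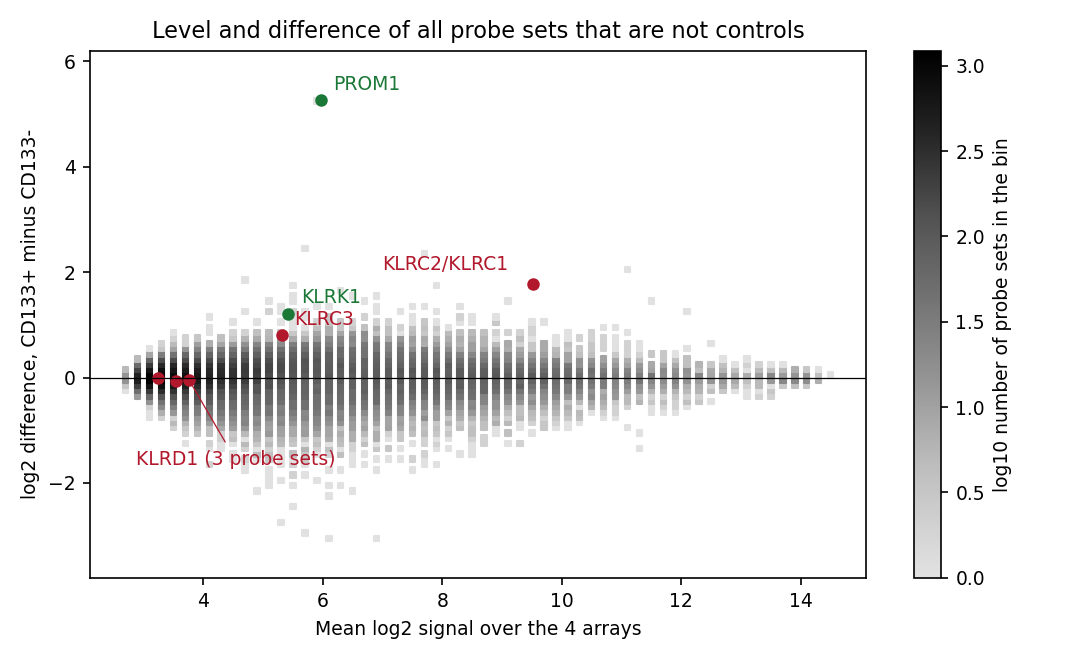
Log2 difference (CD133+ minus CD133-) against mean log2 signal for the probe sets that are not controls, with grey squares darker where more probe sets fall, the member probe sets in red, and KLRK1 and PROM1 in green. The KLRC2/KLRC1 probe set lies at a signal of 9.51 and a difference of 1.77, above nearly all probe sets as bright as it, and the KLRD1 probe sets lie on the zero line at the dim end.

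The KLRC genes are related in sequence, and the stretches before their starts are shown because the KLRC2/KLRC1 and KLRC3 probe sets both stood higher in CD133+ cells. The RefSeq promoter table (GRCh38.p14) held windows for KLRC1 (3), KLRC3 (1) and KLRC4 (1). It held 0 for KLRC2 and KLRD1, so the stretch before KLRC2 could not be compared. The 250 bases before the start are printed 5′ to 3′ for KLRC3, on the minus strand at chr12:10420596-10420845, and for the first window of KLRC1, on the minus strand at chr12:10454686-10454935. For KLRC4 a 30-base stretch on the minus strand at chr12:10409798-10409827 is printed. Capitals mark the longest exact run that the KLRC3 and KLRC4 windows share, which KLRC1 lacks.
KLRC3: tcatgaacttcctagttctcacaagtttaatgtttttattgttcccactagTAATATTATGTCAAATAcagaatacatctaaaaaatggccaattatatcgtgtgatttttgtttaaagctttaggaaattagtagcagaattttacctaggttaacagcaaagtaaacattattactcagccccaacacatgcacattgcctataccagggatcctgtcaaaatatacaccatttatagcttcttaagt
KLRC4: cattaaTAATATTATGTCAAATAtagaagg
KLRC1: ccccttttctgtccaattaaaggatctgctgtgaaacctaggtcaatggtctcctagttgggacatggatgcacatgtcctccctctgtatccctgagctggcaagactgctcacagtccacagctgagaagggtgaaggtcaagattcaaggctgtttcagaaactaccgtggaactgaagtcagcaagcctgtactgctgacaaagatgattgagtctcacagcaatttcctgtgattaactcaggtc

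The run of 17 bases in capitals was found in 2 of the 35116 windows of 250 bases from the table, those of KLRC3 and KLRC4. It begins 199 bases before the start in KLRC3 and 64 bases before the start in KLRC4. A local alignment of these windows matched 74 of 91 columns (81.3%), whereas the KLRC1 windows shared exact runs of no more than 8 bases with KLRC3 or KLRC4. KLRC3 and KLRC4 thus share sequence before their starts. The arrays of the clones lay apart for KLRC3 and overlapped for KLRC4. The mean KLRC4 signal was 3.22 (percentile 11.2), below the level filter, where a difference could hardly be seen, so the genes cannot be contrasted. Then 6 short motifs were searched on both strands of these windows. The TATA box letters TATAAA, present in 10.7% of all windows, were found once in KLRC3, beginning 17 bases before the start on the strand opposite the gene, and once in KLRC4, 123 bases before the start on that same strand. The RUNX letters TGTGGT (11% of all windows) and the letters of AP-1, TGANTCA (6.57%), were not found in the windows of KLRC1, KLRC3 or KLRC4. The same held for the TCF/LEF letters CTTTGAT (2.26%), for the T-box letters AGGTGTGA (0.786%) and for the interferon element GAS, searched as TTCNNNGAA (6.57%). The motifs can overlap one another. A match or its absence describes letters only.

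KLRK1 and KLRC4 complete the NKG2 genes. KLRK1 is read by 205821_at, which also names the read-through KLRC4-KLRK1, and gave 6.23 and 5.82 in the CD133+ clone and 5.03 and 4.60 in the CD133- clone. The clones did not overlap, and CD133+ replicate 1 was the highest (SD 0.29 in CD133+ and 0.31 in CD133- cells). The ratio of CD133+ to CD133- for KLRK1 was 2.32 (1.21 on the log2 scale, SE 0.25), which did not pass the limma test over all probe sets that were not controls (adjusted p = 0.114), where 99 probe sets (0.181%) were called. A dimmer probe set, 1555691_a_at, for the same genes had a difference of 0.28 at a mean signal of 3.96 (adjusted p = 0.557 in the same limma fit). KLRC4 gave 3.51 and 3.09 in CD133+ and 3.08 and 3.19 in CD133- cells, and the clones overlapped.

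The order of the genes on chromosome 12 was used to see how far the difference reached. From KLRB1 to STYK1, taken here as the bounds of the natural killer gene complex, 21 genes other than the members were measured, 13 of them with a positive difference and a median of 0.068. Of the 9 that could be tested, 0 were called by limma at an adjusted p under 0.05, where 3.65% of all genes tested were. An unadjusted p under 0.05 was found for 1 of the 9, and for 3258 of all 15821 genes tested. The 20 tested genes that flank this stretch gave 0 calls by limma as well and 1 unadjusted p under 0.05, with a median of 0.087, against 0.058 for all genes tested. The flanking genes ran from -0.53 to 0.70, the highest being PRB1, whose arrays overlapped between the clones. Within the stretch the high values were those of KLRC1/KLRC2, KLRK1, KLRC3 and GABARAPL1. KLRD1 and KLRC4, which lie among them, had differences of -0.055 and 0.17, both at dim signals.

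GABARAPL1, a member of the ATG8 family that serves autophagosomes and the neighbour of KLRD1, was singled out after its values were seen. Its brightest probe set gave 7.02 and 7.38 in CD133+ and 6.11 and 6.61 in CD133- cells. They differed by 0.84 (SE 0.23), which did not pass the limma test (adjusted p = 0.0953). Another probe set had a difference of 1.06, and one shared with GABARAPL3 had 1.20. Beyond KLRC1, MAGOHB, a copy of an exon junction complex subunit, had -0.24 (limma adjusted p = 0.409). STYK1, a receptor-like kinase at the end of the stretch, had 0.21 on its brightest probe set (limma adjusted p = 0.607) and -0.46 on its other one, so it has no settled direction.

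**Figure D3:**
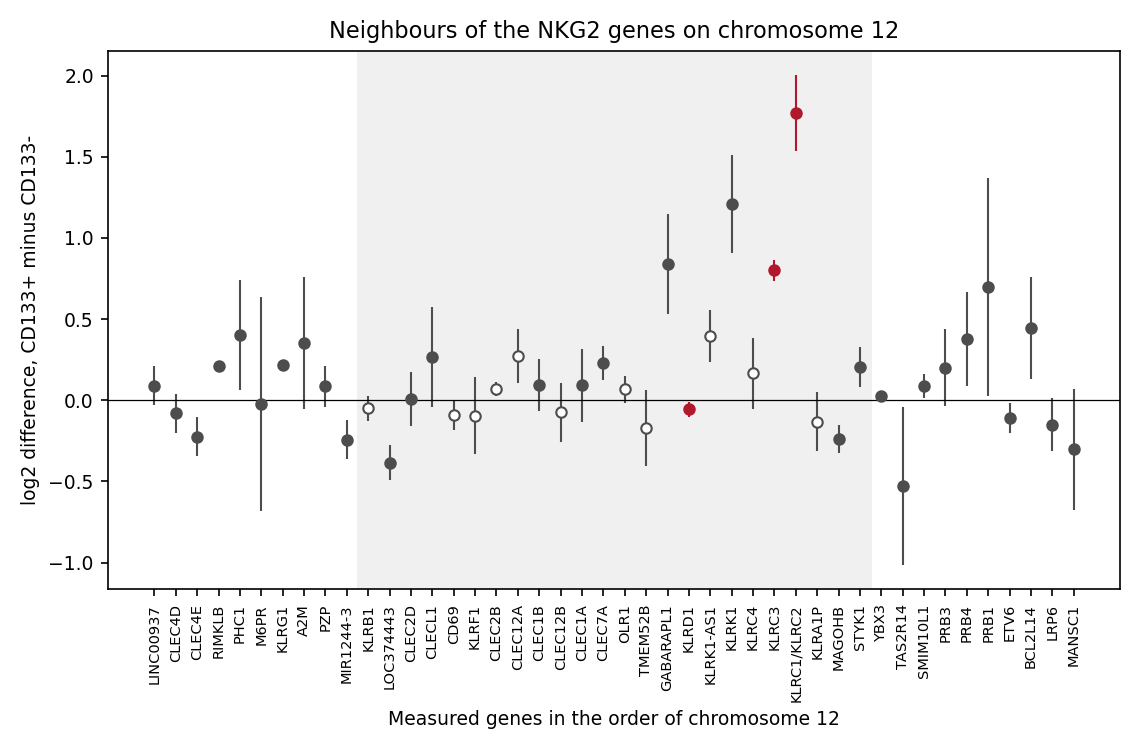
Log2 difference (CD133+ minus CD133-) of measured genes in their order on chromosome 12, with members in red, open symbols for a mean signal below 3.75, bars of 1 standard error computed from the arrays of each probe set alone, and the stretch from KLRB1 to STYK1 shaded. Within that stretch KLRC1/KLRC2 (1.77), KLRK1 (1.21), GABARAPL1 (0.84) and KLRC3 (0.80) stand out, with KLRD1 (-0.055) and KLRC4 (0.17) between them. Outside it PRB1 reaches 0.70.

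The receptors' ligands, adaptors and related genes were described in 8 lists, in which 100 genes were tested and 3 called by limma (3%, against 3.65% of all genes tested), all higher in CD133+ cells. The lectin-like receptors outside the member genes, from KLRB1 (CD161) to the CLEC genes and OLR1, were dim apart from KLRK1, whose values are given above. Of 18 listed, 15 had a probe set, 8 lay below the level filter, 1 (KLRK1) was read by shared probe sets alone and 6 were tested. In the limma fit 0 of the 6 were called and 0 had an unadjusted p under 0.05, against 3258 of all 15821 genes tested. The median difference of these 6, which leaves out KLRK1, was 0.16, and 0 had a signal above the median of all genes. The brightest of those tested were KLRG2 at 4.43 ± 0.20 and 4.15 ± 0.18 and KLRG1 at 4.27 ± 0.023 and 4.05 ± 0.017 (SD, n = 2 each, CD133+ then CD133-). CLEC2D, the ligand of CD161, followed with a difference of 0.0077.

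The genes whose course over the 4 arrays was most like that of 206785_s_at were taken by the root mean square distance of mean-centred signals. MAD1L1, a spindle checkpoint protein, was nearest at 0.069, with signals of 8.54 and 8.90 in CD133+ and 6.93 and 7.09 in CD133- cells. EEF1A2 (0.18), AGR2 (0.20), MYH4 (0.21) and LAMB3 (0.23) followed, against a median of 0.88 over 15819 genes. With 4 arrays, nearness mainly reflects a difference of like size between the clones. KLRC3 and KLRD1 spanned less than 1 log2 unit over the arrays, and no near genes were sought for them.

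HLA-E, the ligand of CD94/NKG2 receptors, was measured at 9.06 and 8.85 in the CD133+ clone and 8.39 and 8.64 in the CD133- clone. The clones did not overlap, and the difference had the same sign in its 3 probe sets. At 0.45 (SE 0.14) the difference did not pass the limma test (adjusted p = 0.124). B2M, the light chain that class I molecules need, had means of 12.74 ± 0.040 and 12.67 ± 0.13 (SD, n = 2 each) and a difference of 0.066.

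Of the 16 listed genes for class I heavy chains, peptide supply and loading, 15 were measured and tested, and 0 were called by limma. An unadjusted limma p under 0.05 was found for 4 of the 15, against 3258 of all 15821 genes tested. The median difference was 0.11, and 14 of the 15 had a signal above the median of all genes. The balance of the list depended on the scaling, with 11 positive differences after quantile normalization, 9 in the values as deposited and 6 with arrays centred on their medians. That shift was not particular to the list, since 58.5%, 54% and 43.3% of all genes tested were positive under the same scalings. CALR, the chaperone calreticulin, had a difference of 0.55 (adjusted p = 0.0633), and CANX, calnexin, one of 0.26 (adjusted p = 0.10), both from limma and neither called. HLA-C had a difference of 0.19.

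The ligands of NKG2D, surface proteins related to class I that stressed and transformed cells display, were split. ULBP2 gave 9.87 and 10.01 in the CD133+ clone and 9.18 and 9.03 in the CD133- clone. It was higher in CD133+ cells by 0.84 (SE 0.11, 1.79-fold, limma adjusted p = 0.0109), the 1 call among the 6 genes tested, and its other probe set differed by 0.87. The call did not hold when limma's variance had no trend on level (limma adjusted p = 0.0824) or with all probe sets fitted one by one (0.0554).

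MICA gave 7.40 and 7.41 in CD133+ and 7.86 and 7.72 in CD133- cells, a difference of -0.38 (limma adjusted p = 0.194). MICB gave 7.85 and 8.12 in CD133+ and 7.55 and 7.64 in CD133- cells, a difference of 0.39 (limma adjusted p = 0.202). Neither passed the test, although for each the clones lay apart after quantile normalization. For MICB the difference was 0.23 as deposited and 0.15 with arrays centred, where its clones overlapped. A probe set that names both differed by -0.35. The list median was -0.14, with 2 positive differences of 6. Of the 6, 3 had an unadjusted limma p under 0.05, against 3258 of all 15821 genes tested.

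Ligands for other natural killer receptors gave 1 call by limma among 11 genes tested, where 3.65% of all genes tested were called. Positive differences were seen in 9 of the 11, against 58.5% of all genes tested. Of the 11, 4 had an unadjusted limma p under 0.05, against 3258 of all 15821 genes tested. The median was 0.26, and it was 0.17 as deposited and 0.089 with arrays centred, each with 8 positive. Over all genes tested the medians were 0.058, 0.028 and -0.051. CD58, the ligand of CD2, had signals of 10.26 and 10.32 in CD133+ and 9.73 and 9.80 in CD133- cells. The difference was 0.52 (SE 0.091, 1.44-fold, limma adjusted p = 0.0231), and 3 of its 5 probe sets had a positive sign. That call was lost when arrays were centred on their medians (limma adjusted p = 0.141), without the variance trend (0.133), when its probe sets were averaged (0.560) or fitted one by one with all others (0.0977), without CD133- replicate 1 (0.188) and without CD133- replicate 2 (0.0662).

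Adaptors and signalling proteins used by these receptors were next. TYROBP (DAP12, the partner of NKG2C) was dim on every array, at 3.70 and 3.84 in CD133+ and 3.75 and 3.76 in CD133- cells. HCST (DAP10, the partner of NKG2D) gave 6.27 and 6.76 in CD133+ and 6.21 and 6.67 in CD133- cells, and the clones overlapped. Of the 20 genes tested in this list 0 were called by limma. An unadjusted limma p under 0.05 was found for 6 of them, against 3258 of all 15821 genes tested. The list had a median of 0.12 and 16 positive differences, which became 12 as deposited and 11 with arrays centred. The positive share of all genes tested fell in the same order, from 58.5% to 54% and 43.3%.

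Several of the list's signalling proteins were bright. FYN, a SRC family kinase, had means of 11.69 and 11.28 in CD133+ and CD133- cells. LCK, another such kinase, gave 10.97 and 11.03 in CD133+ and 10.88 and 10.70 in CD133- cells. PTPN11 (SHP-2) had means of 11.06 and 10.99. The phosphatases that NKG2A recruits were measured too, with PTPN6 (SHP-1) overlapping between the clones and differing by 0.14, or by -0.022 in the values as deposited. Of the chains that NKG2C needs, the signals of TYROBP, like those of KLRD1, lay near the level filter in both clones.

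**Figure D4:**
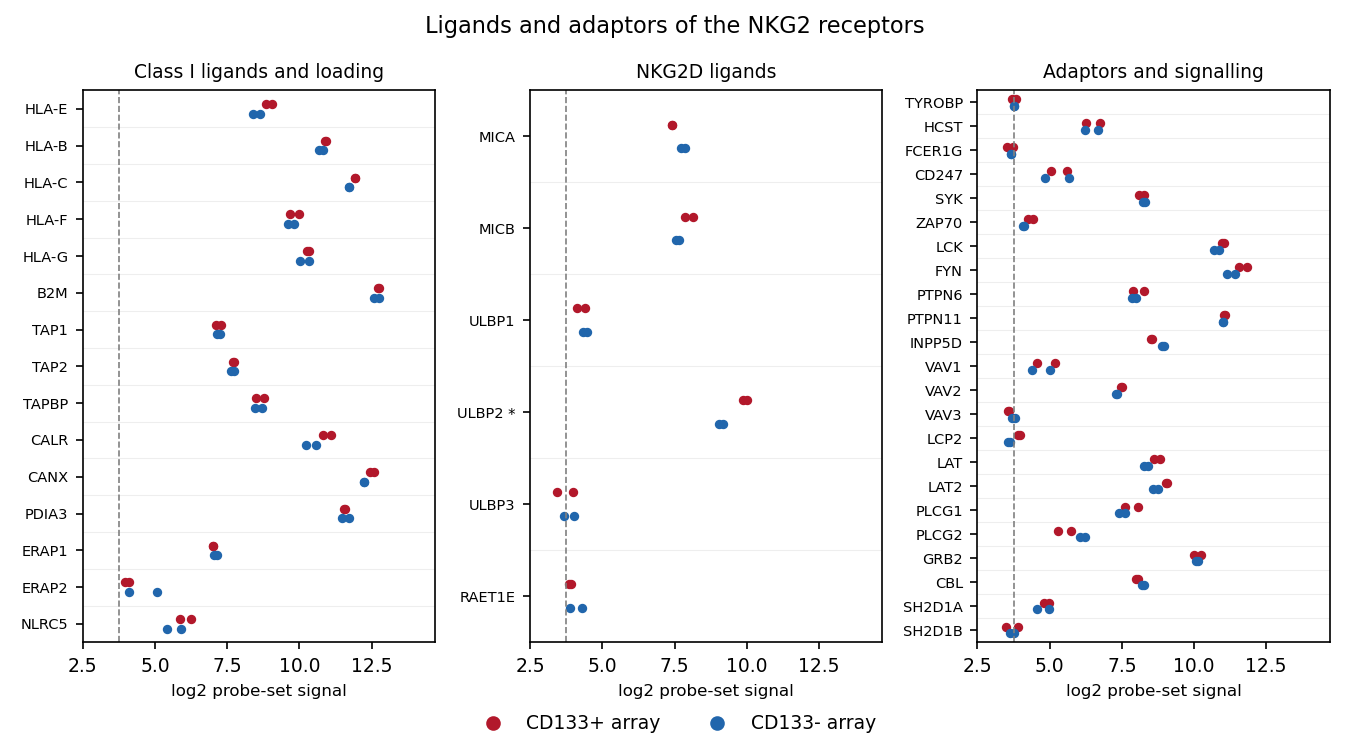
Log2 signal on each array of class I genes, NKG2D ligands and adaptor and signalling genes, with CD133+ arrays in red, CD133- arrays in blue, a dashed line at 3.75 and an asterisk for genes called by limma. ULBP2 carries the asterisk, HLA-E lies between 8.39 and 9.06, and TYROBP sits at the dashed line on all arrays.

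Transcription factors of natural killer cells gave 0 calls by limma among 11 tested genes. An unadjusted limma p under 0.05 was found for 2 of the 11, against 3258 of all 15821 genes tested. The list's median difference was 0.051 with quantile normalization, -0.011 as deposited and -0.089 with arrays centred, so its sign depends on the scaling. The median of all genes tested moved likewise, at 0.058, 0.028 and -0.051. RUNX3 (9.97 and 10.22, means in CD133+ and CD133- cells), NFIL3 (9.35 and 9.33) and ETS1 (9.32 and 9.27) were bright. EOMES and TBX21, the T-box factors that define natural killer and cytotoxic T cells, were at 4.82 and 4.93 and at 4.02 and 3.94.

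Markers of natural killer and T cells were examined since these are the cells in which NKG2 receptors are best known. Of 27 listed, 26 had a probe set and 21 were tested. The summed signal of the list ran from 129.9 to 131.6 in the CD133+ clone and from 124.1 to 127.7 in the CD133- clone. It was thus higher in the CD133+ clone, as were the probe sets of KLRC2/KLRC1 and KLRC3. This was not particular to these markers. The sums of the class I list, the other ligands and the other lectin-like receptors also lay higher in the CD133+ clone. That of the transcription factors lay lower, and those of the NKG2D ligands, adaptors and colon epithelial markers overlapped. The sum of the natural killer and T cell markers spread more between the CD133- arrays than across the gap between the nearest arrays of the clones. The part of these markers in the KLRC differences was not tested. The list's median difference was 0.22, with 17 of 21 positive, against 0.058 for all genes tested. It was 0.27 with 20 positive as deposited and 0.19 with 17 positive with arrays centred. Over all genes tested the medians were then 0.028 and -0.051. Of the 21, 2 had an unadjusted limma p under 0.05, against 3258 of all 15821 genes tested. A signal above the median of all genes was seen in 4 of the 21.

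Among the defining markers, PTPRC (CD45, found on all white blood cells) gave 3.88 and 3.81 in CD133+ and 3.55 and 3.59 in CD133- cells and lay below the level filter. CD2 was at 3.86 and 3.86 and CD3E at 4.11 and 3.98, as means of CD133+ and CD133- cells. NKG7 gave 3.90 and 4.10 in CD133+ and 3.86 and 3.77 in CD133- cells. NCR1 stood at 5.01 and 4.71. For PTPRC, NKG7 and NCR1 the arrays of the clones lay apart and higher in CD133+ cells, as in 23.5% of all probe sets. Those of CD2, CD3E and the brightest PRF1 probe set overlapped. Over the 4 arrays PTPRC, CD2, CD3E and NKG7 stood at percentiles 30.6 to 40.1 of all probe sets and NCR1 at percentile 55.4.

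PRF1, which encodes perforin, was the bright one of the defining markers, at 9.94 ± 0.19 and 9.76 ± 0.15 (SD, n = 2 each), with a difference of 0.18 (limma adjusted p = 0.440). CST7 (cystatin F, an inhibitor of cathepsins in cytotoxic cells) was the 1 marker called. It gave 10.63 and 10.68 in CD133+ and 10.23 and 10.29 in CD133- cells, and the groups differed by 0.40 (SE 0.085, limma adjusted p = 0.0449). The call did not hold in the values as deposited (limma adjusted p = 0.0774), without a level filter (0.0534), with arrays centred (0.243), without the variance trend (0.185), with the probe sets of each gene averaged (0.0799), with all probe sets fitted one by one (0.144), or with any array but CD133+ replicate 1 left out (0.0695 to 0.314).

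Of the colon epithelial markers, 9 of the 11 tested had a signal above the median of all genes, the brightest being general epithelial genes. KRT18 had means of 14.05 and 14.14, KRT8 of 13.14 and 13.30, KRT19 of 12.52 and 12.48 and EPCAM of 12.05 and 12.31 in CD133+ and CD133- cells. Of the 11 tested, 0 were called by limma, and 4 had an unadjusted p under 0.05, against 3258 of all 15821 genes tested. The list's median difference of 0.039 became -0.054 with arrays centred. That of all genes tested went from 0.058 to -0.051. Among genes more restricted to the gut, VIL1 (villin) was at 10.18 and 10.54 and CDX2, an intestinal transcription factor, at 6.30 and 6.14. LGALS4 (4.68 and 4.73) and GPA33 (5.28 and 5.03) lay below the median of all genes. KRT20, a keratin of mature colon cells, lay below the level filter, at 3.33 and 3.51. The markers thus show epithelial cells, and the colon genes among them ranged from bright to dim.

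**Figure D5:**
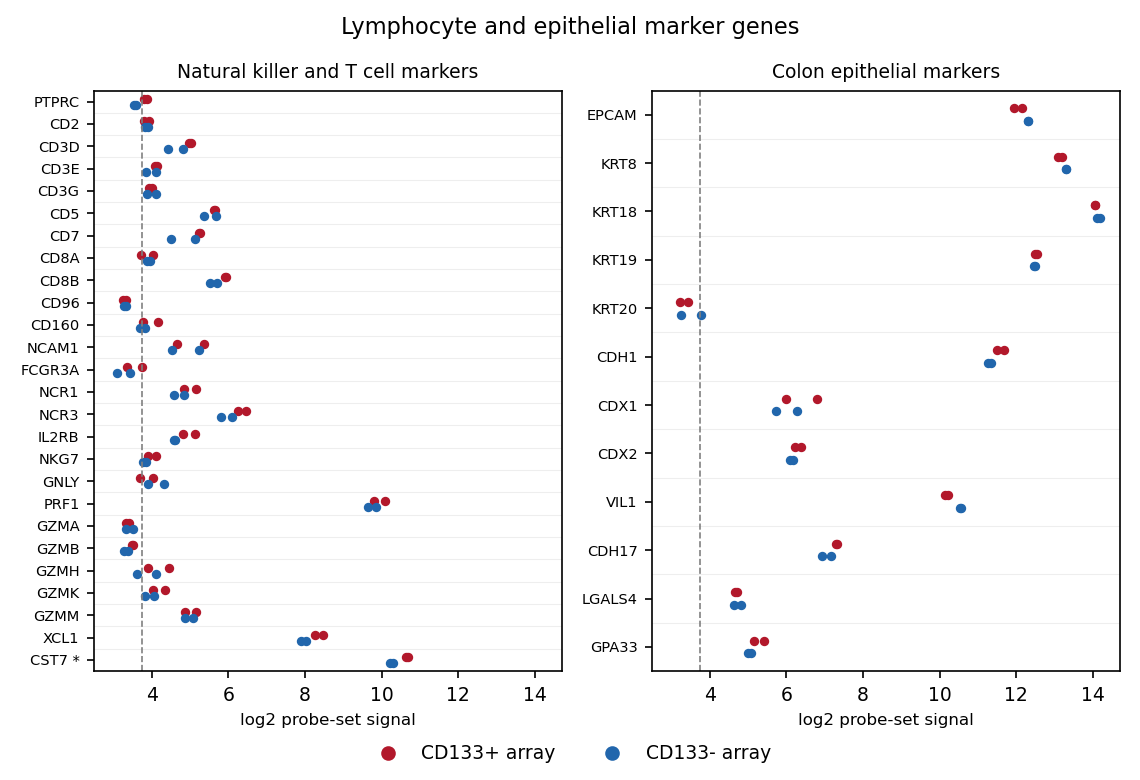
Log2 signal on each array of natural killer and T cell markers and of colon epithelial markers, with CD133+ arrays in red, CD133- arrays in blue, a dashed line at 3.75 and an asterisk for genes called by limma. PTPRC, CD2, CD3E and NKG7 lie close to the dashed line, PRF1 and CST7 lie near 10, and KRT18, KRT8, KRT19 and EPCAM lie near 12 or above.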

How the data were processed

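Signals were measured in 4 samples on Affymetrix arrays. The authors deposited 1 log2 signal per probe set and array. Per the submitters' processing notes they used Affymetrix Expression Console, and neither summarisation nor normalization is given in the sources used here. Member genes and gene lists were chosen with earlier results of these data known.

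Array medians spread by 0.144, above the limit of 0.1, so the deposited values were quantile normalized without the 62 controls. A gene was its brightest probe set naming it alone. The lowest 20% of genes by level were left out. The comparison used limma 3.58.1 (R 4.3.3; lmFit, eBayes with trend), with Benjamini-Hochberg adjustment over 15821 genes, after a check on simulated data. Of these, 3258 had an unadjusted p under 0.05. An exact permutation test of a single gene could not give p below 0.333 with 2 arrays per group. The number of arrays limits precision. Alternatives were other scalings, filters, variance models and probe-set rules, a replicate block and leaving out each array. Named were all member probe sets and, in each list, the genes called or else the 3 brightest, besides genes always given. CALR, PTPN6, the defining lymphocyte markers, EOMES, TBX21, EPCAM, VIL1, CDX2, LGALS4, GPA33, KRT20, KLRG1, KLRG2, CLEC2D and GABARAPL1 lie partly outside that rule and were named after their values were seen. Promoter windows were aligned with Biopython 1.88.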

Additional observations from a re-analysis of the deposited data

How the results depend on the processing

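The differences of the member probe sets kept their direction for KLRC2/KLRC1 and KLRC3 under every scaling and with any array left out. Leaving out an array could not turn their sign, since both CD133+ arrays lay above both CD133- arrays. The members were also picked by this difference, so nothing is read from the kept direction. For KLRC2/KLRC1 the log2 difference was 1.71 as deposited and 1.63 with arrays centred on their medians. For KLRC3 it was 0.73 with arrays centred and 0.74 to 0.86 with an array left out. For KLRD1, as deposited, 207795_s_at had 0.031 and 210606_x_at had 0.0052. With an array left out 207795_s_at ran from -0.091 to -0.020, 210606_x_at from -0.13 to -0.011 and 207796_x_at from -0.18 to 0.15.

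The count of 577 genes called by limma was 12 without the trend of variance, 247 with probe sets averaged and 99 with all probe sets one by one. It ran from 124 without CD133- replicate 1 to 706 with another array left out; a clone left with 1 array was assumed to vary like the other. The share of called genes higher in CD133+ was 35.9%, 21.3% as deposited and 11.4% centred. Of the 3 list genes called (ULBP2, CD58 and CST7), 1 was called centred, 0 without the trend, 1 with probe sets averaged and 0 with all probe sets one by one. With an array left out, 1 to 6 list genes were called, and 1 of the 3 was called again without CD133- replicate 1, and likewise without CD133- replicate 2. With the replicate number as a block, 3030 genes and 23 list genes were called. The labels do not say that a number is shared between clones, there are 2 pairs, and same-numbered arrays deviated together with r = 0.43, so the block is given only here. As each number occurs in both clones, the block could not move the member differences. The cause of these shifts was not tested. Dim probe sets such as those of KLRD1 lie near the floor of the signal, which limits what a difference there can show.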
